A study of Homo sapiens with 24 samples.

Results

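The 31 genes described here activate fatty acids, carry them into mitochondria and break them down by beta oxidation. They include *PPARA*, grouped here with 2 of its textbook targets. They were chosen by name, and each of the 31 symbols had a row among the 58024 Ensembl gene IDs of the expression matrix. By role they were 6 acyl-CoA synthetases, 4 genes of the carnitine shuttle, 12 genes of mitochondrial oxidation, 4 of peroxisomal oxidation, 2 acyl-CoA thioesterases and 3 genes in a *PPARA* group. *ACAT1*, whose enzyme also works in ketone body metabolism, was the single member with a ketogenic role, so other ketone body genes are given at the end.

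A long-chain fatty acid becomes usable only after an acyl-CoA synthetase joins it to coenzyme A. Carnitine palmitoyltransferase 1 (CPT1A in liver) then moves the acyl group onto carnitine, SLC25A20 carries the acylcarnitine across the inner mitochondrial membrane, and CPT2 moves it back to coenzyme A. Inside, a cycle of dehydrogenation, hydration, a second dehydrogenation and thiolysis releases acetyl-CoA, while peroxisomes shorten very long and branched chains. In liver, fatty acids can activate the nuclear receptor PPAR alpha, which raises transcription of many of these genes.

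RNA came from Huh7 cells, an established human hepatoma line, either knockout (KO) for *ABHD6*, a monoacylglycerol hydrolase, or wild type (WT). Cells of each genotype were harvested in basal medium (0 h) and after 24 h or 48 h of treatment with palmitic acid (800 µM), a saturated long-chain fatty acid, giving 4 libraries in each of 6 groups and 24 in all. All groups shared the same culture medium, and no vehicle-treated cells of 24 h or 48 h are among the labels, so palmitic acid and time in culture cannot be told apart. The labels do not say how the knockout was made, how many clones it comprised or whether libraries came from separate cultures, and p-values therefore measure only the spread between libraries. The values are FPKM, fragments scaled to transcript length and library size.

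Estimated depth was 393923 to 500278 fragments per library at 0 h and 563544 to 722464 later. A single fragment on a transcript of 3 kb was then worth 0.461 to 0.846 FPKM, so low genes rest on few fragments. Libraries at 0 h also stood apart in makeup. Genes annotated as antisense held 56.0% to 58.1% of summed FPKM at 0 h and 44.0% to 48.8% later, and mitochondrial genes held 3.2% to 4.43% at 0 h and 10.4% to 14.95% later. The part of these shifts in the palmitic acid comparisons was not tested. Which strand setting the counting had is not stated, and under the opposite one a row would hold reads of the other strand. *ABHD6* was above 0 in 4 of 12 KO and 3 of 12 WT libraries, with a highest value of 1.16 FPKM, which is too low to check the genotype labels. All 10 hepatocyte markers averaged at least 0.5 FPKM, with summed levels of 835 to 2020 FPKM. Of 4 endothelial markers, *VWF*, *CDH5* and *KDR* were listed at 0 throughout and *PECAM1* had 0.462 to 18 FPKM. Of 4 biliary markers, *KRT7* was listed at 0 throughout, *SOX9* had 10.2 to 33.0 FPKM, *EPCAM* had 0 to 13.3 FPKM, and *KRT19* was above 0 in 6 libraries and reached 28.5 FPKM. Stellate and fibroblast markers summed to at most 10.1 FPKM, and the immune sum of 83.7 to 338 FPKM came mainly from *LYZ* (78.0 to 329 FPKM).

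Levels of the 31 genes spanned from *ACADVL*, the very long chain acyl-CoA dehydrogenase, with a mean of 115 FPKM over 24 libraries, to *SLC27A2*, a very long chain acyl-CoA synthetase of peroxisomes and the endoplasmic reticulum, with 0.0898 FPKM. After *ACADVL* came *ACSL3*, the synthetase of the endoplasmic reticulum and lipid droplets (81.0 FPKM), the mitochondrial thioesterase *ACOT2* (45.5 FPKM), the peroxisomal bifunctional enzyme *HSD17B4* (44.3 FPKM), *DECR1*, which handles unsaturated chains (26.2 FPKM), and *ACAT1* (22.8 FPKM). The other members apart from the lowest 4 averaged between 1.73 FPKM (*SLC27A4*, a plasma membrane and endoplasmic reticulum fatty acid transport protein) and 14.8 FPKM (*HADHA*, the alpha subunit of the trifunctional protein). The lowest 4 were *ACADS* (0.676 FPKM), *PDK4* (0.213 FPKM), *ACOT1* (0.0928 FPKM) and *SLC27A2*, each listed at 0 in at least 12 libraries.

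Of the 31 genes, 17 were above 0 in all 24 libraries. The spread over libraries was smallest for *ACADVL* and *ACOT2*, with SDs of 0.34 and 0.35 on the log2(FPKM + 0.5) scale, and largest for *ACSL1*, the main long-chain synthetase of liver, at 1.63. A mean of 0.5 FPKM over the 24 libraries was needed for testing, and 28 members passed. *PDK4*, *ACOT1* and *SLC27A2* did not pass. *ACSL1* passed with 6 libraries at 0, all of them at 0 h, so counts over the tested members are descriptions. *ACOT1* and *ACOT2* share 908 stretches of 50 bases in their transcripts, 53.1% of those of *ACOT1* and 37.3% of those of *ACOT2*, so the split of reads between these near-identical genes is uncertain.

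**Figure D1:**
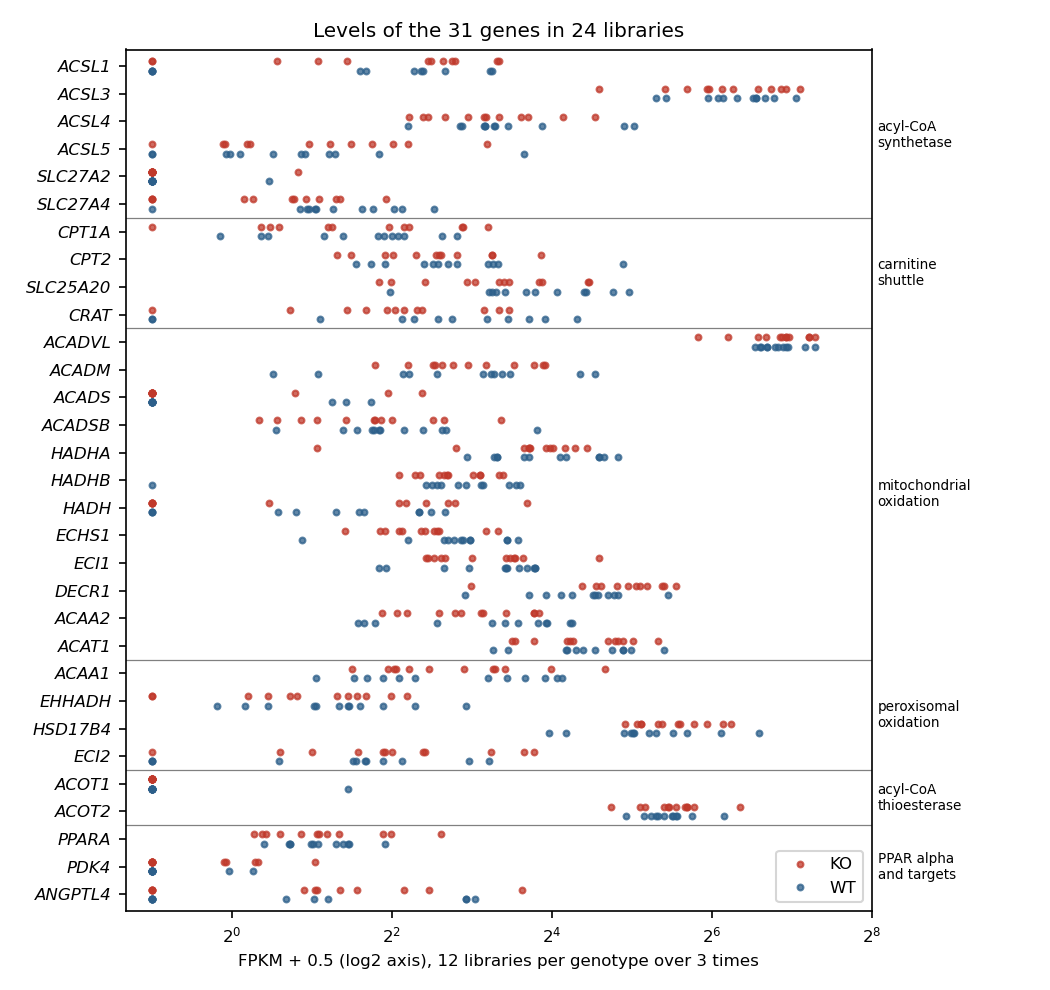
FPKM + 0.5 of each of the 31 genes on a log2 axis, grouped by role, with 1 point per library (KO above WT, 12 libraries each over 0, 24 and 48 h). Points at the left edge are libraries listed at 0. *ACADVL*, *ACSL3*, *ACOT2* and *HSD17B4* lie at the right, and *ACOT1*, *SLC27A2*, *PDK4* and *ACADS* sit mostly at 0.

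After palmitic acid, 3 members rose in KO cells and 2 in WT cells, and none of the 28 tested members fell in either. The genes that rose were *ACSL1*, *CPT1A* and *ACSL3*, so the calls lay in the activation and carnitine steps. None lay in the mitochondrial, peroxisomal or thioesterase groups, or in the group of *PPARA*, *PDK4* (not tested) and *ANGPTL4*. The groups go by role, and targets of PPAR alpha are not confined to the *PPARA* group. In KO cells, 2 of 28 rose at 24 h and 3 of 28 at 48 h, where 2.13% and 3.4% of all 17252 tested genes rose and 3.51% and 6.42% fell. In WT cells, 1 of 28 rose at 24 h and 2 of 28 at 48 h, where 1.46% and 2.57% of all tested genes rose and 2.6% and 4.22% fell. Among all called genes, 37.8% and 34.6% were higher in KO cells at 24 h and 48 h and 35.9% and 37.8% in WT cells, against 56.5%, 52.5%, 54.4% and 58.2% after quantile normalization and 48.5%, 48.9%, 46.2% and 50.2% after median-of-ratios rescaling. Calls were made with limma on log2(FPKM + 0.5) with p-values adjusted by Benjamini and Hochberg's method over all 17252 genes and a threshold of 0.05. The median log2 fold change of the 28 members was 0.06 at 24 h and 0.20 at 48 h in KO cells, and -0.10 and 0.03 in WT cells, beside medians of 0 over all tested genes. In these bulk libraries, fewer cells with an RNA and less of it per cell cannot be told apart.

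*ACSL1* (ENSG00000151726.13, chr4:184755595-184826818 in GRCh38, reverse strand) had the largest log2 fold change of the 28 tested members in KO cells at both times. In KO cells its libraries held 0.978, 0, 1.61 and 0 FPKM at 0 h, 4.99, 5.76, 2.22 and 5.12 FPKM at 24 h, and 9.67, 6.42, 9.44 and 6.25 FPKM at 48 h. In WT cells each of the 4 libraries at 0 h was listed at 0, with 2.71, 2.54, 4.74 and 4.34 FPKM at 24 h and 4.67, 8.92, 5.85 and 9.07 FPKM at 48 h. Every library at 24 h or 48 h lay above every library of its genotype at 0 h, as was so for 4.48% and 6.25% of all tested genes in KO cells and 3.66% and 5.01% in WT cells at 24 h and 48 h. In KO cells, *ACSL1* rose by 2.35 ± 0.49 at 24 h (log2 fold change ± SE, n = 4 libraries per group; limma adjusted p = 0.00454) and by 3.14 ± 0.49 at 48 h (limma adjusted p = 0.000111). It also rose in WT cells, with a limma adjusted p of 0.000666 at 24 h and 1.46e-05 at 48 h, and no fold is given against a group listed at 0. These 4 calls held in each of the 17 alternative analyses of each comparison, over which the log2 fold change in KO cells ran from 1.82 to 3.57 at 24 h and from 2.55 to 4.42 at 48 h. The estimated fragments behind the values, summed over 4 libraries, were 6.7, 66.7 and 133.5 in KO cells and 0, 55.2 and 115.7 in WT cells at 0, 24 and 48 h, while the libraries themselves summed to 1736518, 2345534 and 2692957 fragments in KO cells.

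The step between 24 h and 48 h was smaller for *ACSL1*. It differed by 0.79 ± 0.49 in KO cells (limma adjusted p = 0.682), although the 4 KO libraries at 48 h lay above the 4 at 24 h. In WT cells the difference was 0.90 ± 0.49 (limma adjusted p = 0.747).

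*ACSL3* (ENSG00000123983.13, chr2:222860934-222944639, forward strand) started from a high level. Its KO libraries held 51.4, 62.3, 69.4 and 23.6 FPKM at 0 h, 61.1, 76.3, 107 and 42.4 FPKM at 24 h, and 95, 116, 122 and 137 FPKM at 48 h. WT libraries held 42.6, 61.8, 93.5 and 38.9 FPKM at 0 h, 101, 67.1, 79.2 and 70.4 FPKM at 24 h, and 93.6, 132, 109 and 91.5 FPKM at 48 h. In KO cells the 48 h libraries were all above the 0 h libraries, whereas in WT cells a 0 h library at 93.5 FPKM overlapped the 48 h range. *ACSL3* averaged 118 ± 17.6 FPKM at 48 h against 51.7 ± 20.1 FPKM at 0 h in KO cells (SD, n = 4 each) and rose by 1.27 ± 0.31 (log2 fold change ± SE, limma adjusted p = 0.00902). In WT cells the averages were 106 ± 18.5 FPKM at 48 h and 59.2 ± 25.0 FPKM at 0 h, a log2 difference of 0.91 ± 0.31 that missed the threshold (limma adjusted p = 0.0855). That WT difference passed in 4 alternatives, with limma adjusted p of 0.0435 after median-of-ratios rescaling, 0.0284 after quantile normalization, 0.0374 with a replicate block and 0.032 without WT 0 h replicate 2. The difference between the KO and WT responses at 48 h was 0.36 ± 0.44 (95% interval -0.56 to 1.28, limma adjusted p = 0.912).

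*CPT1A* (ENSG00000110090.12, chr11:68754620-68844410, reverse strand), which catalyses the rate-controlling step of mitochondrial fatty acid entry, was low at 0 h. KO libraries held 0.894, 0.788, 1.01 and 0 FPKM at 0 h, 1.81, 3.42, 6.83 and 3.96 FPKM at 24 h, and 6.94, 4.13, 1.89 and 8.7 FPKM at 48 h. WT libraries held 2.12, 0.865, 0.403 and 0.793 FPKM at 0 h, 3.71, 1.73, 3.24 and 3.5 FPKM at 24 h, and 5.69, 6.53, 3.04 and 3.95 FPKM at 48 h. The 0 h libraries lay below all later libraries in KO cells and below all 48 h libraries in WT cells, and 1 WT library at 24 h fell within the 0 h range. *CPT1A* rose in KO cells by 1.94 ± 0.54 at 24 h (log2 fold change ± SE, n = 4 per group; limma adjusted p = 0.0321) and by 2.28 ± 0.54 at 48 h (limma adjusted p = 0.00628). In WT cells the difference was 1.27 ± 0.54 at 24 h (limma adjusted p = 0.229), and it rose by 1.84 ± 0.54 at 48 h (limma adjusted p = 0.0383).

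The KO call of *CPT1A* at 48 h held in all 17 alternatives, but the calls in KO at 24 h and in WT at 48 h did not. At 24 h in KO cells, the limma adjusted p was 0.0998 without KO 0 h replicate 3, 0.056, 0.0991 and 0.0731 without KO 24 h replicate 1, 2 or 3, 0.0694 after quantile normalization and 0.0584 among genes without opposite-strand overlap. At 48 h in WT cells, it was 0.0739, 0.0986 and 0.071 without WT 0 h replicate 1, 2 or 3, 0.0875, 0.101 and 0.0608 without WT 48 h replicate 0, 1 or 3, 0.102 after quantile normalization, 0.0781 with a pseudocount of 0.1, 0.0515 with a replicate block and 0.0704 among genes without opposite-strand overlap. The log2 fold changes were the same among genes without such overlap, where fewer genes were tested. Across the 17 alternatives of each comparison the log2 fold change stayed between 1.54 and 2.73 in KO at 24 h and between 1.53 and 2.25 in WT at 48 h. The estimated fragments over 4 libraries were 7.7, 62 and 97.1 in KO cells and 11.6, 48.6 and 79.1 in WT cells at 0, 24 and 48 h. The response in KO minus that in WT was 0.67 ± 0.76 at 24 h (95% interval -0.89 to 2.24) and 0.44 ± 0.76 at 48 h (95% interval -1.13 to 2.01). Neither interaction passed. Those of *ACSL1* did not pass either, and no size is given for them because its WT libraries at 0 h were listed at 0.

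**Figure D2:**
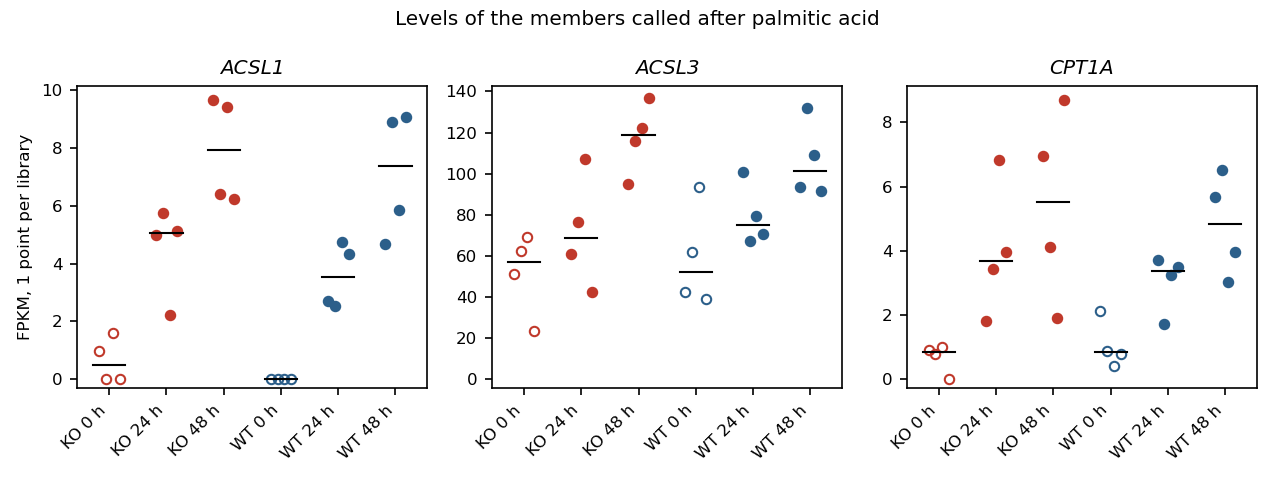
FPKM per library of *ACSL1*, *ACSL3* and *CPT1A* in KO cells (left, red) and WT cells (right, blue) at 0 h (open), 24 h and 48 h of palmitic acid (filled), with 1 point per library and a line at the group median. *ACSL1* is listed at 0 in every 0 h library of WT cells and lies between 4.67 and 9.67 FPKM in every library at 48 h.

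The start regions of these 3 genes are shown because they are the members whose levels changed. The windows are the RefSeq promoter windows of GRCh38.p14, 250 bases before and 50 bases after an annotated start, written 5′ to 3′ on the gene's strand. Capitals mark the 50 transcribed bases. *ACSL1* lies on the reverse strand at chr4:184825919-184826218 and is 1 of 5 windows listed for the gene, *ACSL3* on the forward strand at chr2:222860786-222861085, and *CPT1A* on the reverse strand at chr11:68844228-68844527.
ACSL1: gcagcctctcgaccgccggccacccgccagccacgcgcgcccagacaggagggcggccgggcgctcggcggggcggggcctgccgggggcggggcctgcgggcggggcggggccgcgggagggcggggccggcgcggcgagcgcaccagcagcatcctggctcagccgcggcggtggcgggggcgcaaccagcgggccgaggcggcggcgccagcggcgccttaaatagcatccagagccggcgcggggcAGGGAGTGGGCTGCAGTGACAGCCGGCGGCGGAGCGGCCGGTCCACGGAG
ACSL3: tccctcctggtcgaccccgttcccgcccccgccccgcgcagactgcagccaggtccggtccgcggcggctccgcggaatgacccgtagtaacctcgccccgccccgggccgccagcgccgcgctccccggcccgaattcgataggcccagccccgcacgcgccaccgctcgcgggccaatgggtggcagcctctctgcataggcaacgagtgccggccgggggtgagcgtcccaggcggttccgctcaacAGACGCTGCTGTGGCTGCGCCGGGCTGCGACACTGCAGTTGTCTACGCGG
CPT1A: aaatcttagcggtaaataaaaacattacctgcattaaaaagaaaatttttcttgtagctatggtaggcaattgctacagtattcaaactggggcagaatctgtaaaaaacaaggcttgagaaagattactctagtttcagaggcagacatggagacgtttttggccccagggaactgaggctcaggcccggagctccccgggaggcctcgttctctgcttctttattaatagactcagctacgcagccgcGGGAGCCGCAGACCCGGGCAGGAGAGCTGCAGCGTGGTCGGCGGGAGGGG

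The 3 windows differ in base composition. G and C made up 82.3% of the *ACSL1* window and 74.0% of the *ACSL3* window, against 50% in the *CPT1A* window and a median of 58.7% over all 35116 windows of the table. CG pairs numbered 47, 41 and 13 in the *ACSL1*, *ACSL3* and *CPT1A* windows, with a median of 14 over all windows. The PPAR response element in its strict form (DR1, a pair of AGGTCA half-sites with 1 base between them) was searched on both strands. It was in 8 windows of the whole table (0.0228%) and in none of the 37 windows of the 26 members listed there. With so rare a motif and so few windows, its absence carries no information about these genes. The half-site AGGTCA alone, which is part of that motif, was in 13.8% of all windows and in 1 of 26 members, *ACSL5*. The letters TGATGNAA, a form of the ATF4 composite element, were in 3.62% of all windows and in 1 of 26 members, *HSD17B4*. A member was counted for a match in any of its windows, so these counts and the shares of windows differ in unit. None of the 3 motifs was in the windows printed above.

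The other synthetases and transport proteins among the members did not pass in any palmitic acid comparison. *ACSL4*, which prefers arachidonic acid, had 4.13 to 11.8 FPKM at 0 h, 4.74 to 12.5 FPKM at 24 h and 8.42 to 22.8 FPKM at 48 h in KO cells. In WT cells it had 8.37 to 32.1 FPKM at 0 h, 6.76 to 10.5 FPKM at 24 h and 4.12 to 14.2 FPKM at 48 h, with the ranges overlapping at both times. The WT differences were -0.97 ± 0.48 at 24 h and -0.98 ± 0.48 at 48 h (limma adjusted p = 0.336 and 0.274). *SLC27A4* in WT cells had 1.45, 1.42, 1.55 and 1.91 FPKM at 48 h, all below the 3.89, 2.58, 3.57 and 2.9 FPKM at 0 h, yet its difference did not pass. It was the single member whose 48 h libraries all lay below the 0 h libraries in WT cells, where 6.69% of all tested genes did so. *ACSL5*, a synthetase of mitochondria and the endoplasmic reticulum, ranged from 0 to 12.1 FPKM over the 24 libraries, with a median of 1.36 FPKM.

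In the carnitine shuttle, only *CPT1A* passed among 4 genes. *CPT2*, the inner membrane transferase, had 2.32 to 14.1 FPKM at 0 h, 2.0 to 9.04 FPKM at 24 h and 3.56 to 9.08 FPKM at 48 h in KO cells. *SLC25A20*, the carnitine and acylcarnitine carrier, had 3.09 to 21.5 FPKM at 0 h, 7.71 to 21.7 FPKM at 24 h and 3.48 to 10.6 FPKM at 48 h in KO cells. *CRAT*, which forms acetylcarnitine, was more variable and ranged from 0 to 19.5 FPKM over all libraries. The groups overlapped for each of these 3 genes in both genotypes. The median log2 fold change of the 4 shuttle genes was 1.16 at 24 h and 0.77 at 48 h in KO cells, and -0.61 and -0.125 in WT cells.

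None of the 12 mitochondrial oxidation genes passed in any of the 4 palmitic acid comparisons. Their median log2 fold change was -0.15 at 24 h and 0.16 at 48 h in KO cells, and -0.08 and -0.13 in WT cells. The best measured of them was *ACADVL*, which opens the cycle for long chains. It averaged 117 ± 31.7 FPKM at 0 h, 109 ± 41.8 FPKM at 24 h and 119 ± 22.5 FPKM at 48 h in KO cells (SD, n = 4 each). In WT cells it averaged 108 ± 11.0 FPKM at 0 h, 115 ± 22.2 FPKM at 24 h and 122 ± 25.3 FPKM at 48 h. The 95% intervals of its 4 palmitic acid differences together ran from -0.67 to 0.68 on the log2 scale, narrower than for most members, whose median half-width was 1.16.

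The trifunctional protein joins an alpha subunit (*HADHA*) and a beta subunit (*HADHB*). *HADHB* in WT cells had 0, 5.17, 8.29 and 4.89 FPKM at 0 h, 11.3, 5.63, 6.62 and 8.14 FPKM at 24 h, and 11.7, 5.4, 10.6 and 7.12 FPKM at 48 h. The differences were 1.26 at 24 h and 1.37 at 48 h on the log2 scale (limma adjusted p = 0.304 and 0.201), and the ranges overlapped. *HADHA* in WT cells averaged 18.9 ± 9.08 FPKM at 0 h, 15.3 ± 7.4 FPKM at 24 h and 14.5 ± 6.26 FPKM at 48 h (SD, n = 4 each). *ACAT1*, the mitochondrial acetoacetyl-CoA thiolase, had 9.14, 10.5, 22.8 and 17.6 FPKM at 48 h in WT cells, against 26.4, 31.3, 29.1 and 19.2 FPKM at 0 h. It differed by -0.87 ± 0.39 (limma adjusted p = 0.21), with 1 library at 48 h inside the 0 h range. *ACADSB*, a dehydrogenase of short branched chains, had lower values in every WT library at 24 h (2.13 to 3.1 FPKM) than at 0 h (3.95 to 13.6 FPKM), where 5.55% of all tested genes did so, and its difference did not pass (-1.11 ± 0.54, limma adjusted p = 0.326). The remaining genes of this group (*ACADM*, *ACADS*, *HADH*, *ECHS1*, *ECI1*, *DECR1* and *ACAA2*) had overlapping libraries in each of the 4 comparisons.

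The peroxisomal genes did not pass either. *HSD17B4*, the multifunctional enzyme of very long and branched chains, averaged 46.7 ± 20.6 FPKM at 0 h, 47.7 ± 16.3 FPKM at 24 h and 47.7 ± 12.2 FPKM at 48 h in KO cells. In WT cells it averaged 33.0 ± 4.3 FPKM at 0 h, 45.2 ± 22.4 FPKM at 24 h and 45.6 ± 34.4 FPKM at 48 h (SD, n = 4 each). *EHHADH*, the other peroxisomal bifunctional enzyme and a textbook target of PPAR alpha, had 2.23, 0, 0 and 2.69 FPKM at 48 h in KO cells, against 1.26, 2.0, 4.08 and 3.48 FPKM at 0 h, a log2 difference of -1.30 that did not pass. The thiolase *ACAA1* and the isomerase *ECI2* ranged from 1.58 to 24.9 FPKM and from 0 to 13.2 FPKM over all libraries. *ACOT2*, which hydrolyses acyl-CoA in mitochondria, differed by 0.34 ± 0.26 at 24 h in KO cells and 0.41 ± 0.26 at 24 h in WT cells, neither of which passed.

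*PPARA* itself was low and did not pass in any comparison, with 1.33 to 5.63 FPKM at 0 h, 0.718 to 3.22 FPKM at 24 h and 0.845 to 3.49 FPKM at 48 h in KO cells. *PDK4*, the kinase that restrains pyruvate oxidation, was listed at 0 in every library at 0 h. At 24 h it was above 0 in 3 of 4 KO and 1 of 4 WT libraries, and at 48 h in 2 of 4 KO and 1 of 4 WT libraries, with a highest value of 1.56 FPKM. *ANGPTL4*, a secreted inhibitor of lipoprotein lipase, had 5.02, 1.37, 1.55 and 11.9 FPKM at 48 h in KO cells, against 0, 0, 0 and 3.94 FPKM at 0 h. The ranges overlapped through the 0 h library at 3.94 FPKM, and the difference of 2.22 ± 1.05 missed the threshold (limma adjusted p = 0.217). In WT cells *ANGPTL4* was above 0 in 1 of 4 libraries at 0 h, 2 of 4 at 24 h and 3 of 4 at 48 h.

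**Figure D3:**
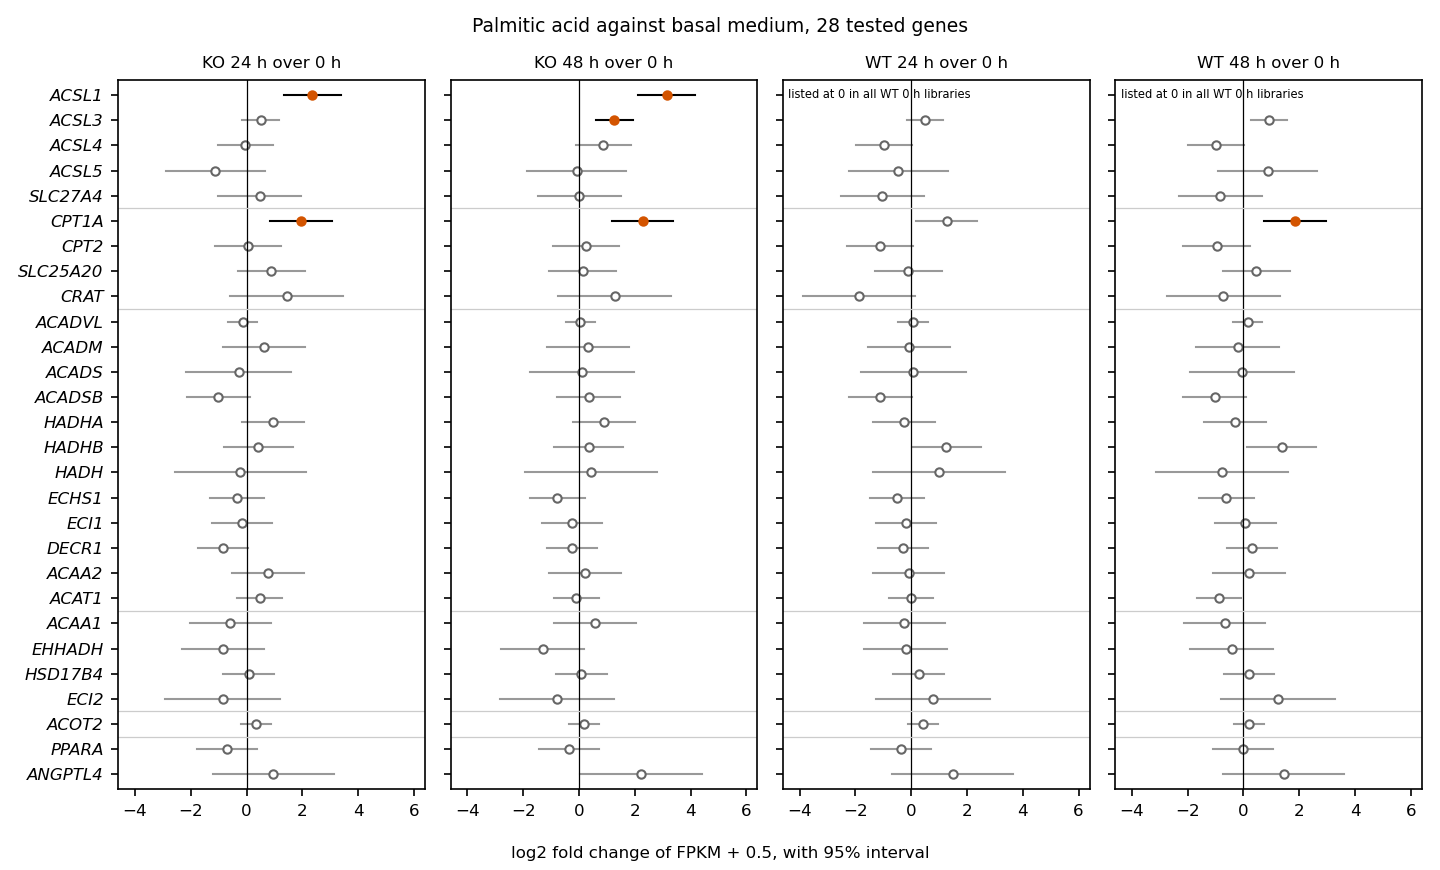
Log2 fold change of FPKM + 0.5 with its 95% interval for the 28 tested genes, at 24 h and 48 h of palmitic acid over 0 h in KO cells (left pair) and WT cells (right pair). Filled points passed an adjusted p under 0.05. The filled points are *ACSL1*, *ACSL3* and *CPT1A* in KO cells and *CPT1A* in WT cells at 48 h, and *ACSL1* in WT cells passed but has no fold because it was listed at 0 at 0 h.

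Between 24 h and 48 h no member passed in KO or WT cells, where 0.516% and 0.122% of all tested genes passed. At an unadjusted p under 0.05 there were 2 members in KO cells and 1 in WT cells. *ACADSB* had 3.16, 3.52, 5.23 and 5.79 FPKM at 48 h in KO cells, against 1.32, 2.95, 0.771 and 0.982 FPKM at 24 h. These ranges did not overlap, as for *ACSL1* and 2.43% of all tested genes, and the log2 difference was 1.37 (limma adjusted p = 0.378).

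*ABHD6* KO and WT cells did not pass for a difference in any member at any time. At 0, 24 and 48 h the number that passed was 0 of 28, where 0.0985%, 0.0116% and 0.0638% of all 17252 tested genes passed in limma. The smallest adjusted p among members was 0.62, 0.986 and 0.823, and the number at an unadjusted p under 0.05 was 4, 0 and 0. The median log2 difference of the members was -0.16, 0.03 and 0.08, beside a median of 0 over all tested genes at 0 h and 24 h. The median SE was 0.56, and the median 95% interval reached 1.16 to each side on the log2 scale, with narrower intervals for members such as *ACADVL* and *ACOT2*.

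The 4 members at an unadjusted p under 0.05 were all lower in KO cells at 0 h. *ACSL4* had 5.84, 11.8, 4.13 and 8.58 FPKM in KO cells, against 32.1, 9.2, 29.5 and 8.37 FPKM in WT cells (-1.17 ± 0.48, limma adjusted p = 0.62). *CRAT* had 3.96, 1.16, 0 and 4.69 FPKM in KO cells, against 19.5, 12.7, 10.5 and 1.65 FPKM in WT cells (-2.08 ± 0.97, limma adjusted p = 0.706). *HADHA* had 1.6, 17.4, 15.7 and 6.51 FPKM in KO cells, against 7.18, 16.7, 23.7 and 27.9 FPKM in WT cells (-1.10 ± 0.53, limma adjusted p = 0.719). *SLC27A4* had 3.3, 0, 1.97 and 0 FPKM in KO cells, against 3.89, 2.58, 3.57 and 2.9 FPKM in WT cells (-1.58 ± 0.72, limma adjusted p = 0.684). For each of the 4 genes at least 1 KO library lay inside the WT range.

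*DECR1*, the mitochondrial dienoyl-CoA reductase, was the single member whose KO and WT libraries did not overlap, and this was at 0 h. It had 33.9, 36.1, 46.5 and 30.5 FPKM in KO cells, against 14.8, 22.8, 25.6 and 18.6 FPKM in WT cells. The difference was 0.84 ± 0.43 (95% interval -0.06 to 1.74, limma adjusted p = 0.744), and 1.41% of all tested genes had every KO library above every WT library at 0 h. At 48 h the *DECR1* ranges overlapped, with 23.1 to 41.1 FPKM in KO cells and 22.4 to 28 FPKM in WT cells.

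**Figure D4:**
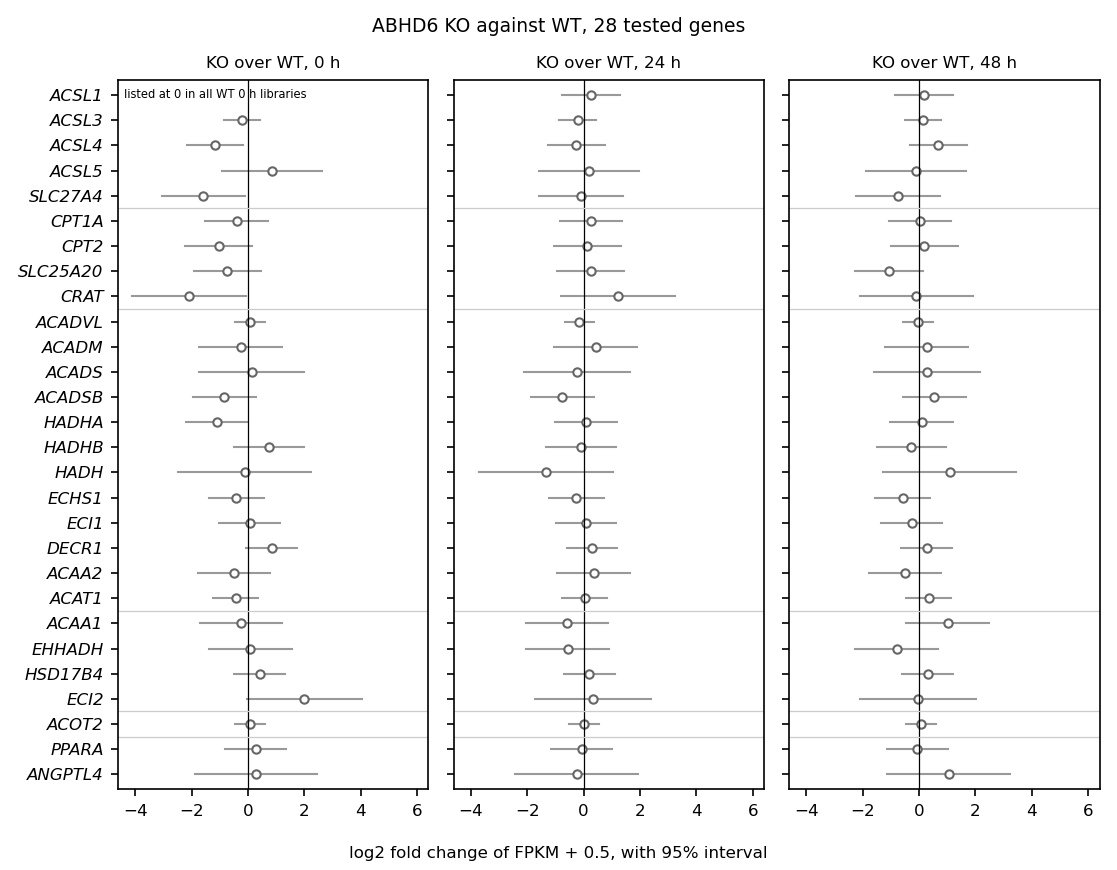
Log2 fold change of FPKM + 0.5, KO over WT, with its 95% interval for the 28 tested genes at 0, 24 and 48 h. No point is filled because no gene passed an adjusted p under 0.05, and *ACSL1* has no fold at 0 h because its WT libraries were listed at 0.

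The response to palmitic acid was also compared between genotypes as an interaction. None of the 28 members passed at 24 h or 48 h, where 0% and 0.0522% of all tested genes passed. Each time had 1 member at an unadjusted p under 0.05. At 24 h this was *CRAT*, with a KO response minus WT response of 3.31 ± 1.38 (limma adjusted p = 0.901). At 48 h it was *ACSL4*, with 1.86 ± 0.68 (limma adjusted p = 0.638). Both interactions share the 0 h values given above, in which the 2 genes averaged lower in KO cells at an unadjusted p under 0.05.

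For 11 of the 31 members another gene has exons on the opposite strand at the same place in GENCODE 29, so their values are uncertain for a directional kit whose strand setting in counting is not stated. With the opposite setting, such a row would hold its partner's reads, and a row with no partner would hold stray reads. *CPT2* averaged 6.84 FPKM, while *AL606760.2*, antisense to it over 1151 bases, averaged 583 FPKM. *ACAA1* averaged 8.14 FPKM, while *DLEC1*, which shares 1403 bases with it, averaged 212 FPKM. The same order held for *ACAT1* (22.8 FPKM) and *AP002433.1* (73.9 FPKM), and for *EHHADH* (2.07 FPKM) and *EHHADH-AS1* (22.6 FPKM). The reverse order held for *ACADVL* (115 FPKM) beside *DLG4* (0.247 FPKM) and for *ACSL3* (81.0 FPKM) beside *AC013476.1* (5.99 FPKM).

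The partner rows had calls of their own. At 48 h in KO cells *EHHADH-AS1* had 9.72, 8.52, 12.5 and 11.6 FPKM, against 48.4, 32.3, 35.1 and 35.3 FPKM at 0 h, and fell by 1.78 ± 0.32 (log2 fold change ± SE, limma adjusted p = 0.000438). In WT cells it had 19.3, 13.9, 14.1 and 8.35 FPKM at 48 h, against 51.7, 38.5, 33.0 and 46.0 FPKM at 0 h, and fell by 1.61 ± 0.32 (limma adjusted p = 0.00215). No library at 48 h reached the 0 h range in either genotype. *DLEC1* had 123 to 170 FPKM at 48 h in KO cells, against 235 to 290 FPKM at 0 h, and fell by 0.85 ± 0.16 (limma adjusted p = 0.000547). These 3 calls held in all 16 alternatives. *DLEC1* in WT cells had 158 to 231 FPKM at 48 h, against 250 to 313 FPKM at 0 h, and did not pass (-0.47 ± 0.16, limma adjusted p = 0.073). *AL606760.2* fell at 48 h by 0.67 ± 0.12 in KO cells and by 0.72 ± 0.12 in WT cells (limma adjusted p = 0.000734 and 0.000598), and both calls were lost after quantile normalization (limma adjusted p = 0.818 and 0.2). *AP002433.1* fell by 0.80 ± 0.24 at 48 h in KO cells (limma adjusted p = 0.036), a call lost in 9 of 16 alternatives, and did not pass in WT cells (limma adjusted p = 0.0532). The *CPT2*, *ACAA1*, *EHHADH* and *ACAT1* rows did not pass. *ACSL1* and *CPT1A* have no annotated exon on the opposite strand, and *ACSL3* has 102 shared bases. Under the opposite strand setting the *ACSL1* and *CPT1A* rows would hold stray reads, so the lack of a partner does not settle their values.

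**Figure D5:**
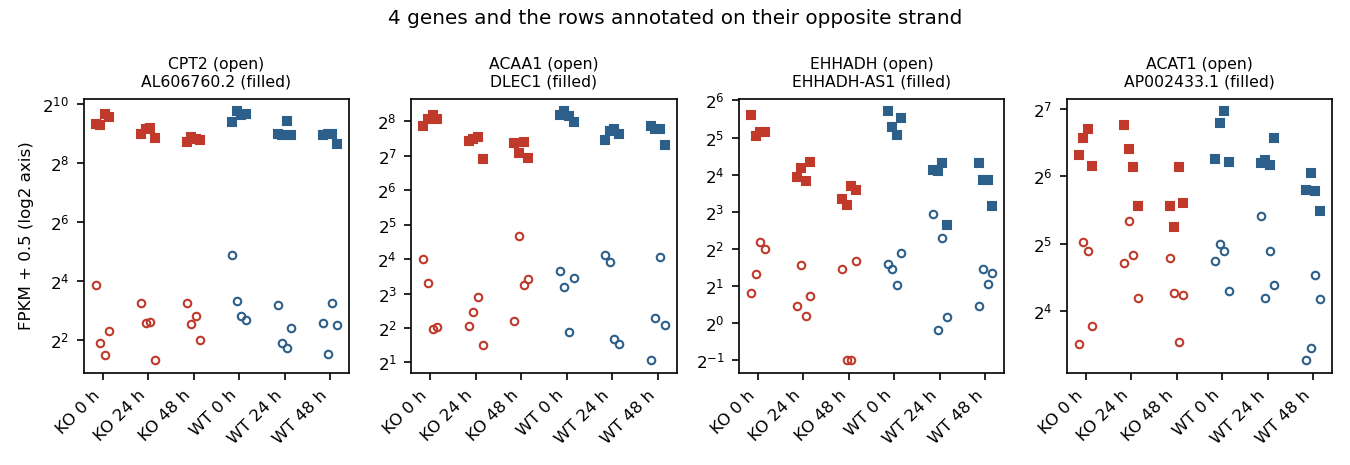
FPKM + 0.5 per library on a log2 axis for *CPT2*, *ACAA1*, *EHHADH* and *ACAT1* (open circles) and for the row annotated on the opposite strand (filled squares), in KO cells (red) and WT cells (blue) at 0, 24 and 48 h. Squares lie above circles of the same library, with means of 583 FPKM for *AL606760.2* and 6.84 FPKM for *CPT2*, and in WT cells at 24 h the highest *EHHADH* circle (7.12 FPKM) exceeds the lowest *EHHADH-AS1* square (5.8 FPKM).

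A further 93 genes of fatty acid uptake, activation, oxidation, ketone body metabolism and PPAR regulation were listed, of which 67 passed the floor. None passed between KO and WT cells at 0, 24 or 48 h, where 0.0985%, 0.0116% and 0.0638% of all tested genes passed, and 3, 2 and 4 had an unadjusted p under 0.05. The smallest limma adjusted p among them was 0.0861, 0.629 and 0.389. In KO cells 3 rose and 2 fell at 24 h, where 2.13% of all tested genes rose and 3.51% fell, and 4 rose and 6 fell at 48 h, where 3.4% rose and 6.42% fell. In WT cells 1 rose and 2 fell at 24 h, where 1.46% rose and 2.6% fell, and 3 rose and 5 fell at 48 h, where 2.57% rose and 4.22% fell. Between 48 h and 24 h 1 gene passed in KO cells, where 0.516% of all tested genes did, and none passed in WT cells. Over all comparisons 6 different genes rose, of which 2 have an opposite-strand partner, and 7 fell, of which 6 have one. The share of all tested genes with a partner is not given, so these counts are descriptions only. Over all genes, calls at 48 h numbered 1695 in KO and 1171 in WT cells, and 388 and 234 among genes without such overlap. How many genes without overlap were tested is not given, so these totals cannot be compared as shares. The unstated strand setting bears on rows with and without a partner.

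*ETFA*, a subunit of the flavoprotein that takes electrons from the acyl-CoA dehydrogenases, rose in all 4 palmitic acid comparisons. It had 8.05, 16.5, 27.2 and 24.4 FPKM at 0 h, 34.1, 43.4, 56.1 and 55.0 FPKM at 24 h, and 49.4, 45.7, 47.0 and 39.4 FPKM at 48 h in KO cells, with every later library above the 0 h range. The log2 changes were 1.39 ± 0.32 and 1.36 ± 0.32 in KO cells (limma adjusted p = 0.00967 and 0.00671), and 1.61 ± 0.32 and 1.75 ± 0.32 in WT cells (limma adjusted p = 0.00413 and 0.00111). *ETFDH*, which passes those electrons on to ubiquinone, fell in all 4, by 0.70 ± 0.17 and 1.23 ± 0.17 at 24 h and 48 h in KO cells (limma adjusted p = 0.0116 and 1.58e-05), and by 0.78 ± 0.17 and 1.15 ± 0.17 in WT cells (limma adjusted p = 0.00647 and 6.31e-05). *ETFDH* shares exonic bases with *PPID* and *C4orf46* on the opposite strand, and *ETFA* has no such partner. The *ETFDH* calls at 24 h were lost after quantile normalization (limma adjusted p = 0.117 in KO cells and 0.0612 in WT cells) and with no intensity trend (0.0873 and 0.0746).

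*PLIN2*, a lipid droplet coat protein and textbook PPAR target, had 6.43, 5.72, 6.66 and 5.03 FPKM at 0 h, 19.7, 21.2, 31.8 and 24.9 FPKM at 24 h, and 20.6, 33.1, 31.7 and 29.8 FPKM at 48 h in KO cells. It rose by 1.93 ± 0.42 and 2.17 ± 0.42 (limma adjusted p = 0.00636 and 0.00113), and no later library overlapped the 0 h range. In WT cells it had 2.74, 2.53, 13.1 and 12.6 FPKM at 0 h, 13.9, 23.5, 11.3 and 15 FPKM at 24 h, and 24.5, 10.6, 18.2 and 12.9 FPKM at 48 h, and did not pass. Its WT values also averaged higher at both later times, with overlapping ranges. In WT cells the smallest limma adjusted p among the listed PPAR regulators and targets was 0.0951 at 24 h and 0.0618 at 48 h. The *PLIN2* response did not pass for a difference between genotypes at either time. *ACSBG1*, an acyl-CoA synthetase best known from brain, averaged 178 ± 17.3 FPKM at 48 h against 373 ± 34.3 FPKM at 0 h in KO cells and 176 ± 30.0 FPKM against 328 ± 41.3 FPKM in WT cells (SD, n = 4 each). It fell by 1.07 ± 0.13 and 0.90 ± 0.13 (limma adjusted p = 6.22e-06 and 9.51e-05), and its exons overlap *IDH3A* on the opposite strand. *ACSM3*, a medium-chain acyl-CoA synthetase, fell by 1.62 ± 0.26 in KO cells and by 1.27 ± 0.26 in WT cells at 48 h (limma adjusted p = 0.000131 and 0.00269), and overlaps *ERI2*.

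*SLC27A1*, another fatty acid transport protein, had 21.2, 13.1, 25.9 and 18.2 FPKM at 24 h in KO cells, against 10.9, 6.52, 2.45 and 6.48 FPKM at 0 h, and rose by 1.62 ± 0.45 (limma adjusted p = 0.0344), a call lost in 7 of 16 alternatives. In WT cells it rose by 1.84 ± 0.45 at 48 h (limma adjusted p = 0.0131), a call lost without WT 0 h replicate 0 (0.058) or WT 48 h replicate 0 (0.0504). *PCCB*, a subunit of propionyl-CoA carboxylase, fell at 48 h by 0.54 ± 0.14 in KO cells and by 0.76 ± 0.14 in WT cells (limma adjusted p = 0.0107 and 0.00088), and the KO call was lost after quantile normalization (0.65), median-of-ratios rescaling (0.0665) and with no intensity trend (0.103). *ACAD11*, an acyl-CoA dehydrogenase, had 28.5, 25.5, 37.9 and 37.9 FPKM at 48 h in WT cells, against 67.9, 121, 82.1 and 84.2 FPKM at 0 h, and fell by 1.43 ± 0.31 (limma adjusted p = 0.00537). *SLC27A5*, a transport protein and bile acid-CoA ligase of liver, was the gene that passed between 48 h and 24 h in KO cells, where it fell by 0.89 ± 0.21 (limma adjusted p = 0.0491), a call lost in 11 of 16 alternatives. All 4 genes overlap another gene on the opposite strand.

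Among ketone body genes, the monocarboxylate transporter *SLC16A1* averaged 13.0 FPKM over 24 libraries, and the hydroxybutyrate dehydrogenases *BDH1* and *BDH2* averaged 6.5 and 3.78 FPKM. *AACS*, *OXCT2*, *OXCT1* and *SLC16A6* averaged 3.0, 1.99, 1.33 and 0.505 FPKM. *SLC16A1* rose in KO cells at 48 h, with 18.8, 17.4, 17.6 and 20.8 FPKM against 17.5, 6.0, 8.68 and 9.41 FPKM at 0 h (0.91 ± 0.28, limma adjusted p = 0.0374). That call was lost when a library was left out, with limma adjusted p of 0.113, 0.0826 and 0.0588 without KO 0 h replicate 1, 2 or 3, and 0.0647, 0.056, 0.0564 and 0.0859 without KO 48 h replicate 0, 1, 2 or 3.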

How the data were processed

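The authors deposited FPKM values per Ensembl gene for 24 libraries, and per the submitters' processing notes they used STAR, Cufflinks and Cuffdiff on GRCh38. Roles, versions and the strand setting are not given in the sources used here. Per the labels' protocols, libraries came from a directional mRNA kit. No scaling between libraries was added. IDs were matched without their version to GENCODE 29 (57375 of 58024), and 45 chromosome Y copies of shared genes were left out. Depth was estimated from the smallest FPKM steps in genes whose only transcript spans 1500 bases or more.

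Values were compared as log2(FPKM + 0.5), which understates changes of low genes, in the 17252 genes averaging 0.5 FPKM or more. limma 3.58.1 in R 4.3.3 fitted 6 group means with an intensity trend (18 residual degrees of freedom) and gave 11 comparisons. Genes were called at an adjusted p under 0.05 (Benjamini-Hochberg, over all tested genes). Log2 fold changes carry an SE and a 95% interval. The fit was tried on simulated data for KO against WT at 0 h. It called 9 of 100 genes changed 2-fold and 54 of 100 changed 4-fold, with 6 unchanged genes called. The changed genes were drawn only from rows with higher mean FPKM, so these rates do not cover low members such as *ACSL1* and *CPT1A*. A gene that did not pass may therefore still have changed. Groups came from sample titles. Alternatives were pseudocounts of 0.1 and 1, no filter or 2 FPKM, rescaling by the median of ratios, quantile normalization, a block for replicate number and leaving out each library. An analysis with no intensity trend and one of genes without opposite-strand overlap were chosen after seeing the data. Motifs were counted in Python 3.11.15.

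The members and lists were chosen with earlier results of these data known. All 31 members are described, with opposite-strand partners, the other listed genes called (at most 6 per comparison, by smallest adjusted p) and other ketone body genes by level, some of which are not reported here. *SLC16A1* was given its test as one of the latter. Same-numbered libraries showed no shared deviation (r -0.0435 to 0.0676 over 60 pairs), beside -0.0762 to 0.0937 over 180 pairs of different number. At this depth that cannot exclude a pairing, and the labels do not state one.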

Additional observations from a re-analysis of the deposited data

Results flagged for a closer look

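In 151 groups of 4 libraries with at least 3 values above 0, 9 held a library that stood apart from the other 3 by Dixon's test (5.96%). Chance flags about 1 in 20 groups where values are normally distributed, which was not checked for these FPKM. In KO cells at 0 h, *ACADSB* was 9.78 FPKM in replicate 1 (others 1.60 to 2.94 FPKM), *HADHB* was 9.68 FPKM in replicate 3 (others 3.76 to 4.61 FPKM), and *PPARA* was 5.63 FPKM in replicate 3 (others 1.33 to 2.03 FPKM). In KO cells at 24 h, *ECI1* was 23.7 FPKM in replicate 3 (others 4.89 to 7.5 FPKM) and *PPARA* was 3.22 FPKM in replicate 2 (others 0.718 to 1.02 FPKM). In KO cells at 48 h, *SLC25A20* was low at 3.48 FPKM in replicate 0 (others 9.67 to 10.6 FPKM). In WT cells, *CPT2* was 29.3 FPKM in replicate 0 at 0 h (others 6.02 to 9.54 FPKM), *SLC25A20* was 21.1 FPKM in replicate 3 at 24 h (others 8.76 to 9.39 FPKM), and *ACSL5* was 12.1 FPKM in replicate 2 at 48 h (others 0.489 to 1.83 FPKM). None of these genes passed in a comparison.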

How the results depend on the processing

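No called member reversed its direction under any alternative. The number of members called was 0 under every alternative in the 3 comparisons of KO with WT, in both comparisons of 48 h with 24 h and in both interactions. In KO cells at 24 h it was 2, and became 1 after quantile normalization, 1 among genes without opposite-strand overlap (chosen after seeing the data) and 1 to 2 with a library left out. In WT cells at 48 h it was 2, and became 1 with a pseudocount of 0.1, 1 among genes without opposite-strand overlap and 1 to 2 with a library left out. *CPT1A* was the call lost each time. After median-of-ratios rescaling the WT count at 48 h became 3, with *ACSL3* gained (limma adjusted p = 0.0435). After quantile normalization in WT cells at 48 h, *CPT1A* was lost and *ACSL3* gained. Whether the replicate numbers pair libraries is not known. With a replicate block the WT count at 48 h stayed at 2, with *CPT1A* lost (limma adjusted p = 0.0515) and *ACSL3* gained (0.0374). The KO count at 48 h was 3, and 2 among genes without overlap, where *ACSL3* was not tested. Over all genes, the palmitic acid comparisons called 973 and 1695 genes in KO cells at 24 h and 48 h and 701 and 1171 in WT cells. With no intensity trend (chosen after seeing the data) they called 639, 1453, 334 and 750, and among genes without overlap 199, 388, 107 and 234. The latter set is smaller and its size is not given. KO against WT called 17, 2 and 11 genes at 0, 24 and 48 h, and 7 to 36, 0 to 5 and 3 to 33 over the alternatives. The 48 h against 24 h counts were 89 in KO and 21 in WT cells, and 7 to 133 and 4 to 43 over the alternatives. The interaction counts were 0 at 24 h and 9 at 48 h, and 0 to 2 and 4 to 13. Leaving out a library gave 453 to 684 genes in WT cells at 24 h. Median-of-ratios rescaling moved the median of all genes by 0.105 (log2) at 48 h in KO cells. Depth limits genes under about 1 FPKM, which rest on a few fragments per library.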
